A study of Drosophila melanogaster with 12 samples.

Results

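RNA that co-purified with the RNA-binding protein Pumilio (Pum) from heads of adult Drosophila melanogaster was compared with the RNA of whole head lysate, to ask which functional classes of head mRNAs were over- or under-represented with Pum. Of the 12 libraries of 3′-end sequencing in the series, 8 were compared: 4 made after pulling down Pum by its Flag tag (Pum xRIP, cross-linking RNA immunopurification) and 4 made from head lysate before immunopurification (input). They were chosen by their column names in the gene and cluster count tables. The Pum xRIP flies were pumFlag, in which the endogenous pum gene carries a C-terminal Flag-HA tag, so that the tagged protein was made wherever the gene is normally active. The inputs came from pumFlag flies, from w118 flies (w1118 in the study's methods) and from 2 samples of mixed genotype, whose columns are named fne and rbp9. The labels give genotype wt and adult heads for all 12 samples, and the treatments Pum RIP, w118 RIP or none. All heads were cross-linked with UV light, which fixes proteins to the RNA they touch, and flies of both sexes entered in equal amounts. The remaining 4 libraries, Flag immunopurifications from untagged w118 flies (control xRIP), are given as the background of the purification. Nothing in the labels ties libraries to separate cultures of flies, so p-values measure the spread between these libraries, which may be technical.

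Pum is the founding member, with nematode FBF, of the PUF family of RNA-binding proteins. Its repeat domain reads a short single-stranded motif, the Pumilio Response Element (PRE), in which a UGUA core is followed by an AU-rich end, and which lies mostly in 3′ UTRs. Once bound, Pum recruits corepressors and the deadenylation machinery, which shortens the poly(A) tail and lowers translation or stability of the mRNA. In Drosophila it was first known for repressing hunchback in the posterior embryo, and in neurons for limiting sodium channel synthesis, dendrite branching and synaptic growth.

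Sites of this kind are shown for 9 genes called higher in Pum xRIP, because their sequence is what the purified protein is known to read. Each window of 30 bases comes from the longest annotated 3′ UTR (Ensembl release 115), read from the RefSeq copy of the dm6 assembly, and is the first site of that UTR with enough flanking sequence. The letters are in the sense of the mRNA with T for U, and capitals mark the PRE, searched on the sense strand as TGTANATA.
pum: ttgtcgtatttTGTATATAacaagcaaagg
VAChT: acataaagaagTGTACATAagttatacaac
Rdl: gattttcaattTGTAAATAcacacagaaga
beat-IIIc: aaaaatccaacTGTAAATAgttaatgttta
Nlg3: aaaaattacacTGTAAATAgttaaccaagt
onecut: aggtgtatgtaTGTAGATAttagtttgaat
Pde1c: gaacgcgtagaTGTAAATAgcaaaggagtt
Raf: tcttgtccctcTGTACATAagcgattcgcg
Clk: cgtatacccacTGTATATAacactctgtag

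In dm6 these windows lie at chr3R:9069140-9069169 (pum, minus strand), chr3R:18715816-18715845 (VAChT, plus strand), chr3L:9149314-9149343 (Rdl, minus strand), chr2L:17189587-17189616 (beat-IIIc, minus strand), chr3R:7572000-7572029 (Nlg3, minus strand), chr4:599183-599212 (onecut, minus strand), chr2L:11816157-11816186 (Pde1c, minus strand), chrX:2343503-2343532 (Raf, plus strand) and chr3L:7764183-7764212 (Clk, minus strand). The fifth base of the element varies, with A, C, G and T all present among the 9. The 3′ UTR of Clk held 5 PREs within 980 nt, that of beat-IIIc 4 within 2313 nt and that of pum 2 within 4602 nt. Among all 7335 tested genes with an annotated 3′ UTR, 24.2% held at least 1 PRE. A match describes the letters and does not show that Pum was bound there.

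The libraries differed in depth and complexity. Pum xRIP libraries held 3050717 to 5051009 counts over 4100 to 6110 genes, inputs 9563433 to 13726254 counts over 8678 to 9603 genes, and control xRIP libraries 3342790 to 4485996 counts over 3992 to 5134 genes. Across genes, which do not count as replicates, Spearman correlations were 0.629 to 0.698 between Pum xRIP libraries and 0.911 to 0.948 between inputs. A grouping that the labels do not name was also visible. Over 557 genes above 50 CPM (counts brought to a common library total after TMM scaling) in every library, the libraries numbered 1 and 3 of both purifications deviated from their group means together with the w118 and fne inputs, and those numbered 2 and 4 with the pum and rbp9 inputs. Correlations of these deviations between Pum xRIP and input were 0.11 to 0.44 within such a set and −0.44 to −0.19 across sets. The sets were drawn from these same deviations, which cancel out within a group, so the ranges describe the grouping and do not test it. Each group holds 2 libraries of each set, so the sets do not coincide with the comparison. Of 47 functional classes, 46 had a ratio of their share of Pum xRIP counts to input counts on the same side of 1 in both sets, the exception being histones. Class medians lay on the same side of the median of all genes in both sets for 42 of the 47. Those that switched sides were transmitter synthesis, chromatin proteins, the spliceosome, fatty acid synthesis and fat body proteins.

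The markers of head tissues moved with the purification. Of 8 neuronal markers 4 were called higher and none lower, and their summed level was 4890 to 6135 CPM in Pum xRIP against 2200 to 3251 in input and 687 to 945 in control xRIP. The 4 were brp, Syt1, VAChT and VGlut, at means of 1182, 1641, 914 and 565 CPM against 206, 693, 99.9 and 136 CPM in input. The summed level thus rested largely on these called members, and elav, nSyb, Syx1A and Gad1 were not called. Of 8 photoreceptor markers 4 were called lower and none higher, with 8714 to 11590 CPM against 21540 to 27500 in input. Of 8 glial markers 1 was called higher and 2 lower (1184 to 1995 CPM against 2136 to 3242). Muscle markers had 4 of 7 tested members called lower (591 to 850 CPM against 2144 to 3186), with TpnC4 at 0 in every Pum xRIP library, and fat body markers 2 of 7 (4780 to 7234 CPM against 7369 to 18840). All 5 testis and male gland markers in the table were at 0 in Pum xRIP, whereas their summed level was 191 to 312 CPM in control xRIP and up to 92.3 CPM in the w118 input. Pum xRIP was purified from head lysate, so a marker level there describes RNA recovered in the purification and is not a count of cells. The part of cell type in the class differences below was not tested.

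The bait came first. Transcripts of pum (FBgn0003165, 3R, 9066343 to 9237682, minus strand) reached 2420, 1112, 2241 and 1306 CPM in Pum xRIP libraries 1 to 4. The inputs held 76.2 (w118), 38.2 (pum), 62.1 (fne) and 72.8 CPM (rbp9), an order kept for all input values below. Every Pum xRIP library was far above every input, and the libraries numbered 1 and 3 were the higher ones. The log2 fold change was 4.78 ± 0.39 (SE, adjusted p = 0.000309, edgeR), and 6.26 ± 1.17 against control xRIP (adjusted p = 0.00630, edgeR), where pum lay between 0 and 47.5 CPM.

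Across the head transcriptome, far more genes were lower than higher. Among 7568 genes tested (edgeR, quasi-likelihood F test), Pum xRIP exceeded input for 264 (3.49%) and fell below it for 944 (12.5%), at an adjusted p below 0.05 and an absolute log2 fold change above 1. Of the 264, 257 had every Pum xRIP library above every input, an arrangement seen in 5.63% of all tested genes. The lower genes fell into distinct kinds. In 667 no Pum xRIP library had a count, and they were of low level in input (median 8.42 CPM). Of these, 273 had no counts in control xRIP either, so their absence was shared with the untagged purification. The 667 passed the expression filter only through the inputs, and all were called. The other 277 had counts in Pum xRIP and were abundant in input (median 295 CPM), and 272 of them had every Pum xRIP library below every input, which held for 22.4% of tested genes. The median input level was 50.2 CPM for the higher genes and 24.8 CPM for all tested genes.

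The median log2 fold change over all tested genes was −0.54 under TMM scaling, against which the class medians below are to be read, and −0.49 and −0.33 when size factors of DESeq2 or plain totals replaced it. Higher genes were 21.9%, 23.3% and 27.8% of all calls under these scalings. The count of calls depended strongly on the fit: 42 higher and 372 lower genes were called when all 3 groups entered a single edgeR fit, 416 and 1068 with DESeq2, and 100 and 520 without the 2 inputs of mixed genotype. Leaving out any 1 Pum xRIP library raised the lower calls to between 1471 and 1916 and gave 255 to 343 higher ones. Of the 36 higher genes named by rule, only pum, lncRNA:CR42861, VGlut, Rdl, GluClalpha, beat-IIIc and upSET kept their call in the 3-group fit, and no direction changed. The common dispersion was 3.87 in Pum xRIP and 0.191 in input. Against control xRIP, 270 of 4776 tested genes were higher in Pum xRIP (5.65%) and 131 lower (2.74%). Of the 264 genes higher than input, 138 were also called higher than control xRIP, 243 had every Pum xRIP library above every control xRIP library, and 32 had no counts in control xRIP.

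Genes were sorted into 47 functional classes under 8 themes, from gene names and known functions. Earlier results of these data were known when the lists were chosen, so they have counts and medians and no test. Their counts are to be read against the 3.49% of all tested genes called higher and the 12.5% called lower. Adhesion and guidance stood highest, with 31 genes called higher and 3 lower of 107 tested and a median log2 fold change of 0.997. Neuronal signalling had 30 higher and 13 lower of 205 (median 0.26), and regulation, which holds transcription factors, RNA-binding proteins and signalling pathways, 40 higher and 21 lower of 267 (0.19). Growth and metabolism had 2 higher and 80 lower of 521 (median −0.79), sensory head tissue 2 and 10 of 51 (−0.80), other tissues 2 and 20 of 122 (−0.99), cell structure 1 and 5 of 21 (−1.04) and noncoding RNAs and histones 1 and 5 of 59 (0.42). The genes called lower were 15.4% of growth and metabolism and 16.4% of other tissues, near the share of all genes. In all, 108 of the 264 higher genes and 156 of the 944 lower genes were in a list, and the rest were in none. Control xRIP, which shares the inputs with this comparison, had a median log2 fold change against input of −0.81 over all genes, and of −2.42 for adhesion and guidance, −2.10 for neuronal signalling, −1.97 for regulation and −0.13 for growth and metabolism.

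**Figure D1:**
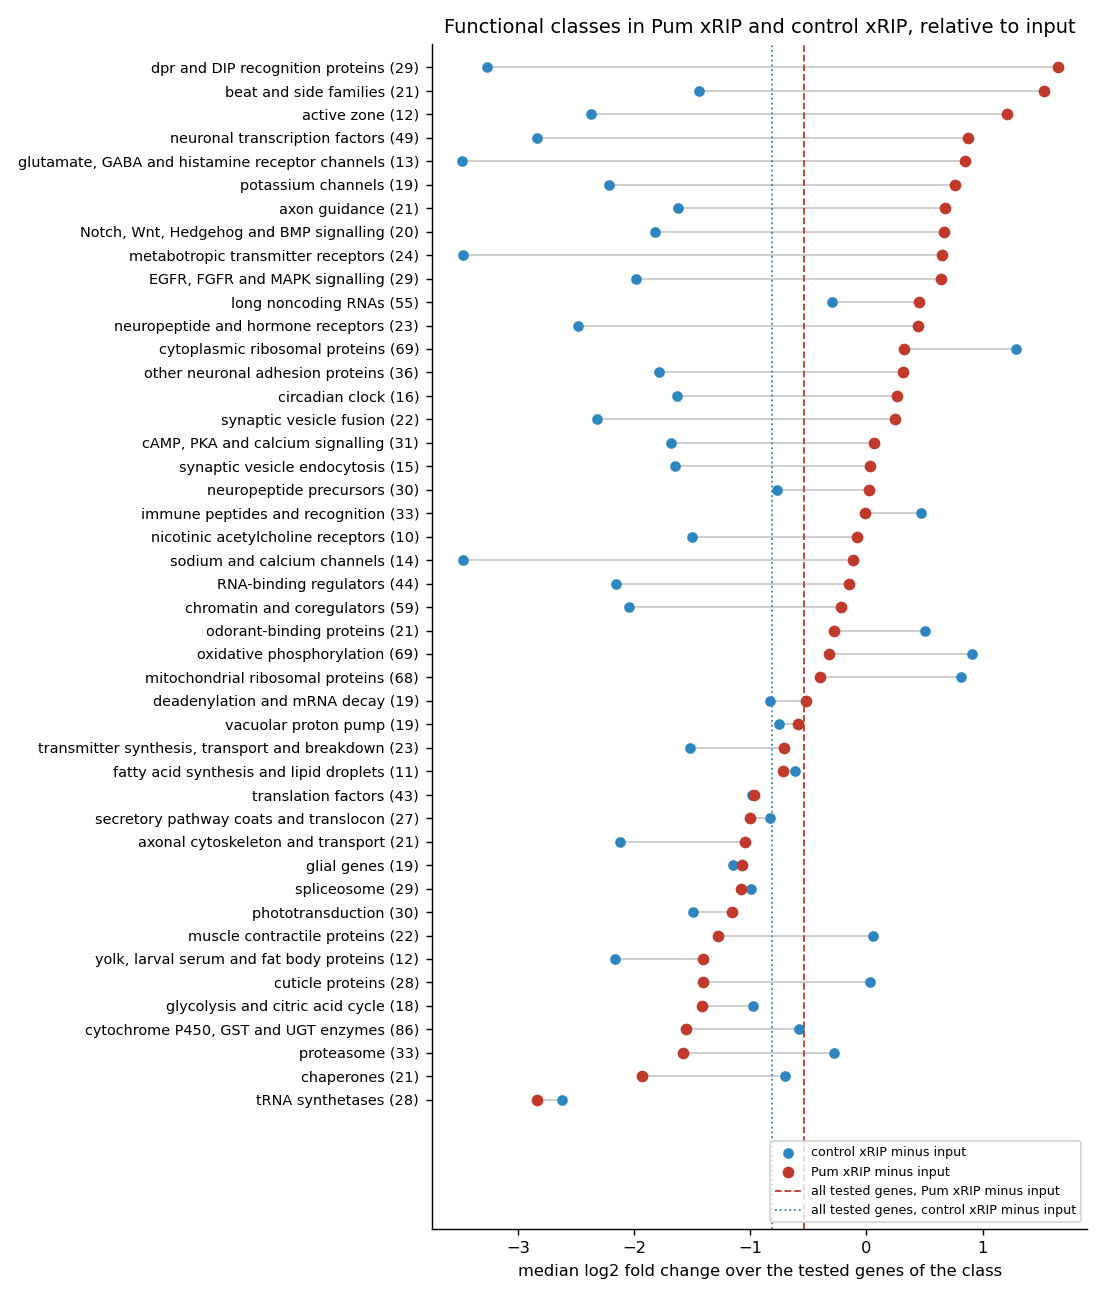
Median log2 fold change of each functional class with at least 10 tested genes (number in brackets), for Pum xRIP minus input (red) and control xRIP minus input (blue), with dashed and dotted lines at the medians of all tested genes. The dpr and DIP class stands highest in Pum xRIP at 1.65 and at −3.27 in control xRIP, and the tRNA synthetases stand lowest in Pum xRIP at −2.83 and at −2.62 in control xRIP.

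The class with the highest median was one of cell-surface proteins by which neurons recognize their partners. The dpr and DIP proteins, immunoglobulin-domain partners that pair in matching combinations on synaptic partners, had 10 members called higher and 1 called lower of 29 tested, with a median log2 fold change of 1.65. Together they took 0.441 to 0.538% of the counts of Pum xRIP libraries, 0.0643 to 0.0811% of the inputs and 0.0110 to 0.0160% of control xRIP, so that their mean share was 6.65 times that of input. Transcripts of dpr12 (FBgn0085414) were at 1956, 1472, 1421 and 1626 CPM in Pum xRIP and at 179, 208, 136 and 160 CPM in input. The lowest Pum xRIP library was thus several times the highest input, and only control library 1 had any counts (6.34 CPM). The log2 fold change was 3.21 ± 0.21 (SE, adjusted p = 0.000175, edgeR). For dpr1 (FBgn0040726) the values were 475, 377, 371 and 315 CPM against 32.9, 23.3, 32.2 and 14.6 CPM, again without overlap (log2 fold change 3.85 ± 0.36, adjusted p = 0.000624, edgeR). The other called members were dpr5, dpr8, dpr9, dpr10, dpr13, dpr15, dpr19 and DIP-kappa, with log2 fold changes of 2.18 to 3.82. The lower call was DIP-theta, which had no counts in Pum xRIP and 5.66 CPM in input.

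The beat and side families, the first named for beaten path, a factor that lets motor axons leave their bundle, and the second for sidestep, its membrane partner on target tissue, had 9 members called higher and 1 lower of 21 (median 1.53, share 5.70 times that of input). In beat-IIIc (FBgn0032629) the Pum xRIP libraries held 332, 507, 749 and 706 CPM and the inputs 44.2, 68.5, 51.0 and 60.0 CPM. Control xRIP held only 0.273 CPM, in its library 4. The change was 3.32 ± 0.30 (SE, adjusted p = 0.000536, edgeR). In beat-Ic (FBgn0028644) the values were 260, 243, 461 and 315 CPM against 27.9, 19.3, 29.5 and 27.9 CPM, with 38.8 CPM in control library 3 (3.56 ± 0.33, SE, adjusted p = 0.000536, edgeR). No Pum xRIP library overlapped an input in either gene. Also called higher were beat-IIIb, beat-IV, beat-Va, side, side-II, side-IV and side-VI, whereas beat-IIb had no counts in Pum xRIP and 6.54 CPM in input.

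Other adhesion molecules of neurons had 9 higher and 1 lower call of 36 (median 0.32, share 2.18 times that of input). The receptor phosphatase gene Ptp99A (FBgn0004369), which acts in motor axon guidance, was at 935, 652, 708 and 534 CPM in Pum xRIP and at 148, 123, 122 and 105 CPM in input (2.47 ± 0.25, SE, adjusted p = 0.000993, edgeR). Nlg3 (FBgn0083963), a neuroligin of the postsynaptic membrane, was at 371, 212, 260 and 216 CPM against 29.9, 37.7, 25.3 and 17.3 CPM (3.23 ± 0.37, SE, adjusted p = 0.00144, edgeR). Both were above every input in every Pum xRIP library. The rest of the higher members were caps, klg, CG34353, CG34354, CadN2, Ten-a and Dscam2, and the lower one was Dscam3, at 0 in Pum xRIP.

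Among guidance cues and receptors, 3 of 21 genes were called higher and 0 lower (median 0.68). Sema1a (FBgn0011259), a membrane semaphorin, held 502, 287, 403 and 514 CPM against 88.6, 91.6, 76.5 and 61.8 CPM in input (2.38 ± 0.27, SE, adjusted p = 0.00150, edgeR). Sema2b (FBgn0264273), a secreted semaphorin that overlaps or closely neighbours jtb on the same strand, held 250, 452, 202 and 332 CPM against 41.7, 63.0, 31.0 and 36.9 CPM (2.81 ± 0.36, SE, adjusted p = 0.00217, edgeR). Neither overlapped between groups, and the third call was robo3, a Slit receptor, with 2.77.

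**Figure D2:**
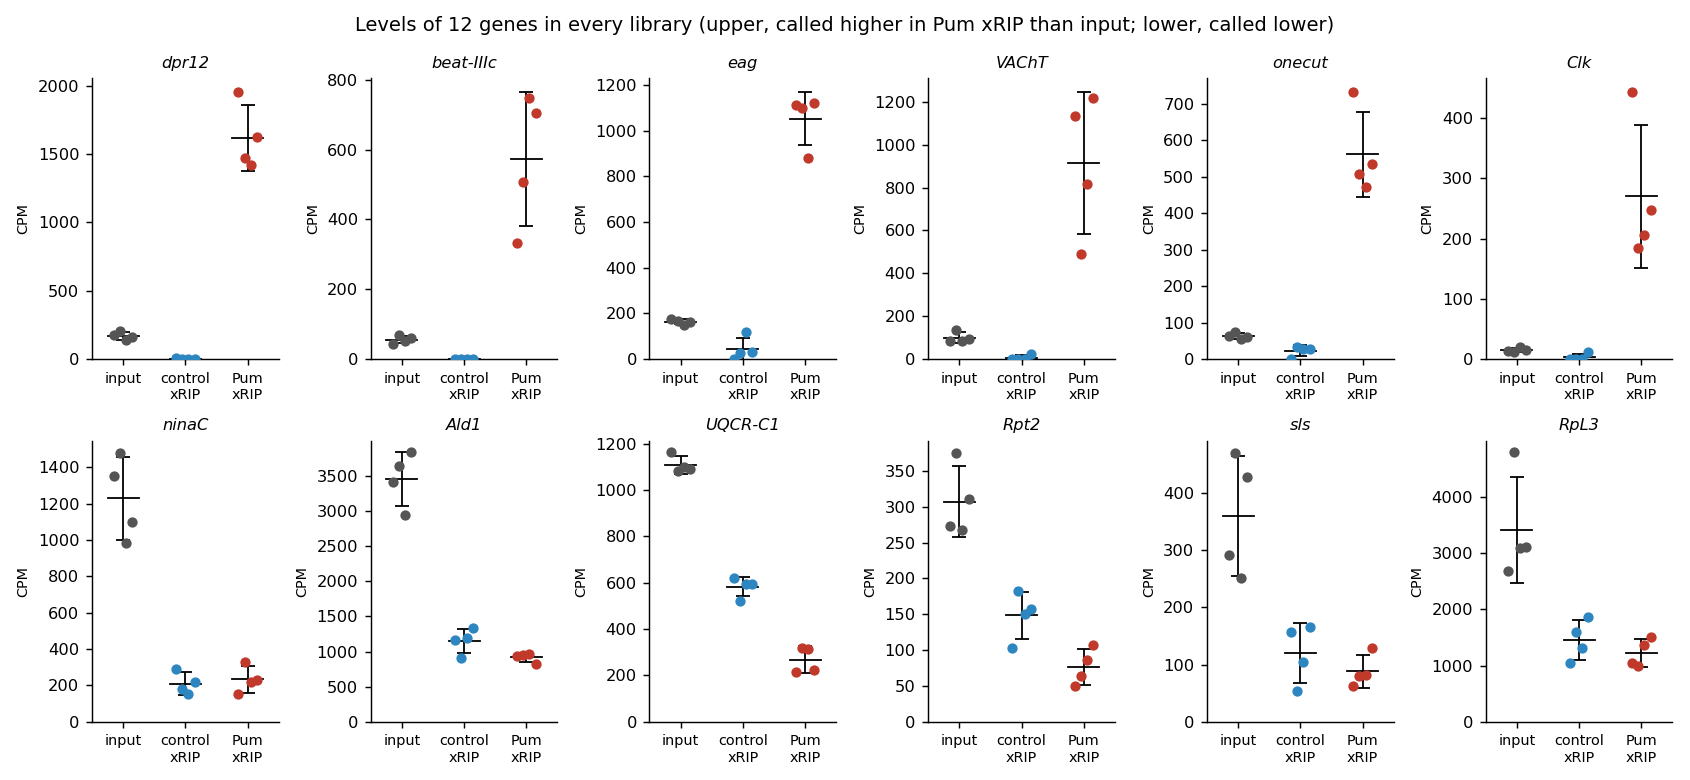
CPM of 12 genes in every library (points), with the mean and SD of each group (bars), the upper row called higher and the lower row called lower in Pum xRIP than in input. In the upper row every red point is above every input and control point, as for dpr12 with at least 1421 CPM in Pum xRIP and at most 208 CPM in input, and in the lower row Ald1 lies at 826 to 969 CPM in Pum xRIP and at 2946 to 3846 CPM in input.

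Genes of electrical excitability were the next group. Potassium channels had 7 members called higher and 1 lower of 19 (median 0.76), and their share of counts was 0.641 to 0.761% in Pum xRIP, 0.150 to 0.207% in input and 0.0272 to 0.0817% in control xRIP. Transcripts of eag (FBgn0000535), a voltage-gated channel named for leg-shaking flies, were at 1113, 1101, 878 and 1120.0 CPM in Pum xRIP and at 177, 167, 148 and 163 CPM in input. The replicates were tight and far apart (log2 fold change 2.65 ± 0.18, SE, adjusted p = 0.000219, edgeR). SLO2 (FBgn0261698), a channel opened by intracellular ions, was at 609, 794, 810 and 579 CPM against 132, 144, 121 and 159 CPM (2.29 ± 0.20, SE, adjusted p = 0.000531, edgeR), with CG42733 overlapping or closely neighbouring it on the same strand. Sh, Shal, slo, SK and qvr were also called higher (log2 fold change 1.69 to 2.29). KCNQ was the lower call, at 0 in Pum xRIP and 3.17 CPM in input.

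Sodium and calcium channels had 2 members called higher and 1 lower of 14 (median −0.12), with a share of 0.544 to 0.997% in Pum xRIP against 0.210 to 0.306% in input, and without para, which was not called, of 0.381 to 0.446% against 0.182 to 0.200%. Both higher ones, named here after their values were seen, were calcium channels: cac, the presynaptic channel that triggers transmitter release, with 2.57, and Ca-alpha1T with 1.30. The lower one was unc80 (−1.30), a subunit of the sodium leak channel. For para, the voltage-gated sodium channel and a textbook Pum target, named here for that role, the libraries held 1482, 4351, 1217 and 5265 CPM in Pum xRIP and 296, 1508, 237 and 1024 CPM in input. The groups overlapped, since the sets of libraries described above differed several-fold in either group. The log2 fold change of 1.998 ± 0.69 (SE) did not pass the test (adjusted p = 0.0927, edgeR). With DESeq2 para was called higher (2.07 ± 0.64, SE, adjusted p = 0.00756, DESeq2), as it was with plain library totals (2.30 ± 0.66, SE, adjusted p = 0.0428, edgeR). The remaining alternatives without a term for the sets did not call it. The study itself reports para among the mRNAs recovered with Pum. Within each set both Pum xRIP libraries were above both inputs, and with a term for the sets, chosen after seeing the data, para was called higher (2.10 ± 0.19, SE, adjusted p = 0.00109, edgeR).

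At the presynaptic release site, 2 of 12 active zone genes were called higher and none lower, and the class median was 1.21. They were brp, the scaffold of the release site, with 2.49 and unc-13, which primes vesicles for fusion, with 1.46. The class took 0.407 to 0.508% of Pum xRIP counts, 0.159 to 0.212% of input and 0.0256 to 0.0490% of control xRIP. The machinery of vesicle fusion had only Syt1, the calcium sensor of release (1.20), called higher and Nsf2 (−7.57) lower of 22, with a median of 0.24. Of vesicle endocytosis genes lap (2.37), a clathrin assembly protein, was the only call among 15, and the shares of that class overlapped between Pum xRIP (0.151 to 0.192%) and input (0.137 to 0.155%).

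Transmitter genes diverged within the class. Of 23 genes for synthesis, transport and breakdown, 3 were called higher and 3 lower (median −0.71). The vesicular acetylcholine transporter VAChT (FBgn0270928) was at 1135, 490, 814 and 1218 CPM in Pum xRIP and at 84.0, 136, 85.0 and 94.6 CPM in input (3.16 ± 0.32, SE, adjusted p = 0.000993, edgeR). It shares its locus and strand with ChAT, and the transcripts are told apart only by their 3′ ends. The vesicular glutamate transporter VGlut (FBgn0031424) was at 631, 536, 644 and 450 CPM against 116, 72.8, 203 and 155 CPM, but also at 221 to 343 CPM in control xRIP, so that its difference from control (1.15 ± 0.32, SE, adjusted p = 0.0489, edgeR) was smaller than from input (2.01 ± 0.34, SE, adjusted p = 0.00412, edgeR). The third was Eaat1, a glutamate uptake transporter of glia (1.44). The monoamine enzymes Tdc2 and Trhn, which make tyramine and serotonin, had no counts in Pum xRIP and 5.55 and 5.18 CPM in input, at least 33.7-fold and 29.7-fold lower at a floor of 3 counts over the 4 libraries. Such floors cover counting error only. The third lower gene was e (ebony), at 27.5 to 47.4 CPM against 123 to 199 CPM.

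Receptors for transmitters were mostly higher where called. Nicotinic acetylcholine receptor subunits had 3 higher and 1 lower of 10. nAChRbeta1 (FBgn0000038) was at 625, 680, 651 and 578 CPM in Pum xRIP and at 277, 229, 221 and 238 CPM in input, without overlap (1.35 ± 0.18, SE, adjusted p = 0.00233, edgeR). nAChRalpha1 was at 130.5, 45.1, 111 and 123 CPM against 6.07 to 16.1 CPM (3.37 ± 0.61, SE, adjusted p = 0.00523, edgeR). The third was nAChRalpha6 and the lower one nAChRalpha4, which had 0 counts in Pum xRIP but 42.5 CPM in control xRIP.

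Receptor channels for glutamate, GABA and histamine had 3 higher and no lower calls of 13 (median 0.85). The GABA-gated chloride channel Rdl (FBgn0004244) was at 2118, 2039, 1837 and 2402 CPM against 781, 1181, 695 and 1005 CPM (1.17 ± 0.19, SE, adjusted p = 0.00356, edgeR). The glutamate-gated chloride channel GluClalpha was at 1034, 1596, 789 and 1822 CPM against 278, 738, 273 and 490 CPM, again higher in libraries 2 and 4 and in the pum and rbp9 inputs. Its call (1.54 ± 0.38, SE, adjusted p = 0.0193, edgeR) was lost without Pum xRIP library 2 or 4 or without the fne, rbp9 or w118 input, with adjusted p values of 0.0514 to 0.0770 (edgeR). GluRIA was the third.

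Metabotropic receptors had 4 higher and 1 lower of 24 (median 0.65). The dopamine receptor Dop1R1 (FBgn0011582), required for aversive learning, was at 382, 253, 340 and 270 CPM against 64.9, 80.2, 67.1 and 43.6 CPM (2.25 ± 0.29, SE, adjusted p = 0.00217, edgeR). The serotonin receptor 5-HT1B was at 161 to 479 CPM against 45.1 to 86.3 CPM (2.23 ± 0.37, SE, adjusted p = 0.00412, edgeR). Among the 5 largest increases of all genes was mtt, a relative of metabotropic glutamate receptors, at 64.0, 232, 32.0 and 51.4 CPM against 7.07, 3.05, 7.32 and 2.41 CPM, with no counts in control xRIP. Library 2 stood far above the other Pum xRIP libraries, but the lowest of them still exceeded every input (4.20 ± 0.88, SE, adjusted p = 0.00858, edgeR). DopEcR was also higher (1.12), and mAChR-B was the lower call, at 0 in Pum xRIP.

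Peptide signalling was described by precursors and receptors. Of 30 neuropeptide precursors, Proc (1.73 ± 0.38, SE, adjusted p = 0.0110, edgeR), Capa and ITP were higher and none was lower, and their median log2 fold change was 0.02. Capa, which overlaps or closely neighbours trp on the same strand, was at 119, 195, 190 and 242 CPM against input values of 94.0, 74.6, 56.4 and 78.2 CPM, and control xRIP held as much as input (67.4 to 96.2 CPM). Its call was lost without Pum xRIP library 4 or without the fne, pum or rbp9 input (adjusted p of 0.0563 to 0.0840, edgeR). Of 23 receptors for neuropeptides and hormones, only SPR, the sex peptide receptor, was higher (2.25), and 5 were lower, all at 0 in Pum xRIP and at 2.95 to 8.58 CPM in input: PK2-R2, CNMaR, CCKLR-17D1, SIFaR and Dh44-R1. The median of the 23 was 0.44.

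**Figure D3:**
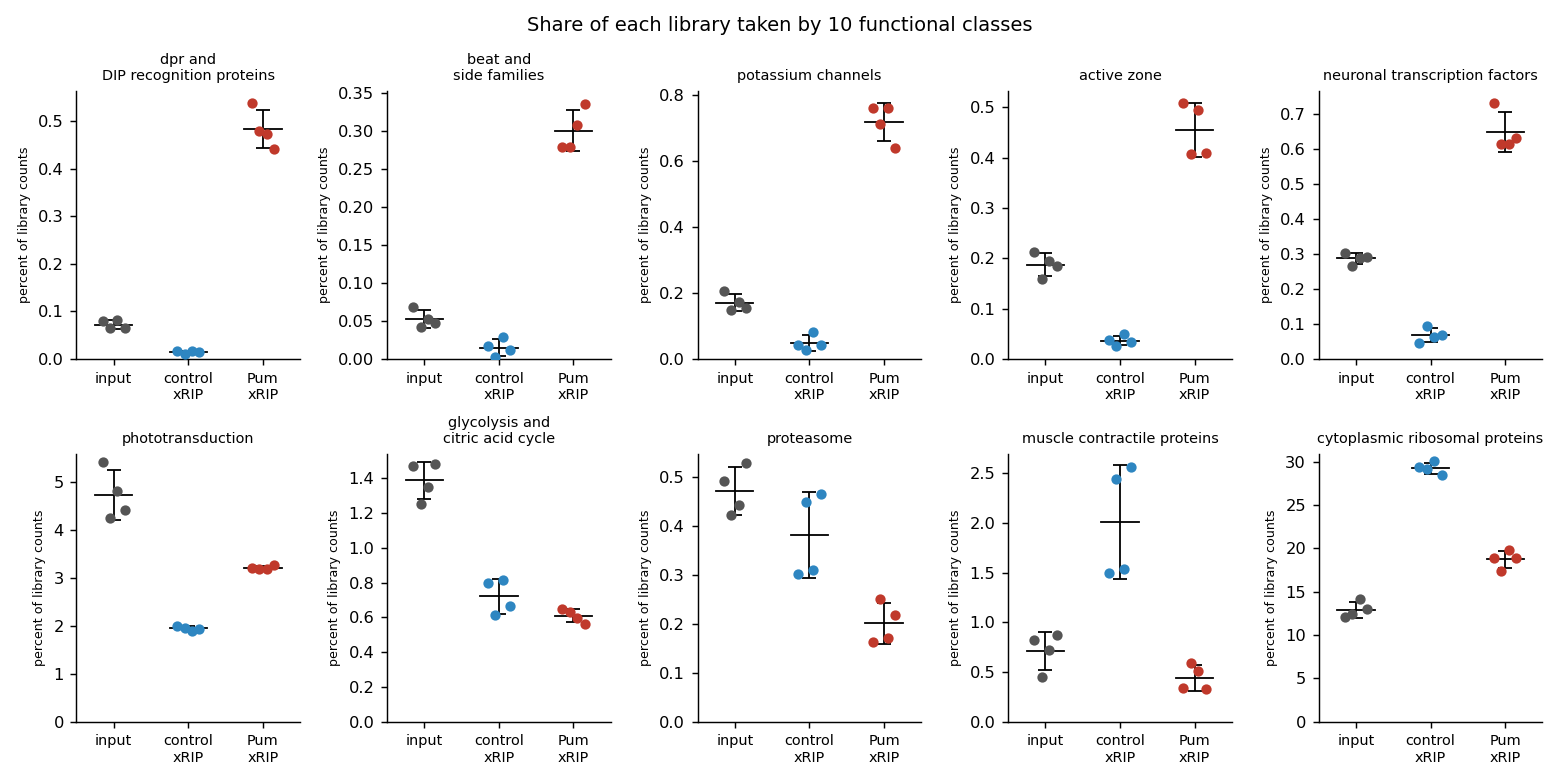
Percent of each library's counts taken by 10 functional classes (points, one per library; bars, mean and SD of each group). In the upper row, as for potassium channels at 0.641 to 0.761%, every Pum xRIP library lies above every input and every control xRIP library, and in the lower row phototransduction, glycolysis and proteasome lie below every input.

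Regulators of gene expression were represented among the higher genes. Neuronal transcription factors had 10 higher and 2 lower of 49 (median 0.88, share 2.25 times that of input). The homeodomain factor onecut (FBgn0028996) was at 734, 507, 471 and 536 CPM in Pum xRIP and at 62.7, 75.1, 55.8 and 61.5 CPM in input (3.11 ± 0.23, SE, adjusted p = 0.000289, edgeR). The BTB factor psq (FBgn0263102), which overlaps or closely neighbours CG11883 on the same strand, was at 445, 537, 700 and 547 CPM against 53.5, 105, 83.3 and 80.9 CPM (2.76 ± 0.25, SE, adjusted p = 0.000536, edgeR). Neither overlapped between the groups. The others were Ets65A, scrt, chinmo, Bx, Mef2, Eip75B, hth and CrebB, with 1.37 to 3.37, and the lower ones were ey and Hr39, both at 0 in Pum xRIP.

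Chromatin proteins and coregulators moved in both directions, with 7 higher and 7 lower of 59 (median −0.22). Sin3A (FBgn0022764), the scaffold of a histone deacetylase complex, was at 250, 262, 402 and 226 CPM against 41.8, 41.9, 35.0 and 42.6 CPM (2.78 ± 0.28, SE, adjusted p = 0.000993, edgeR). upSET (FBgn0036398), a SET domain protein that works with a deacetylase complex, was at 546, 507, 543 and 800 CPM against 65.6, 137, 65.9 and 63.0 CPM (2.83 ± 0.31, SE, adjusted p = 0.00124, edgeR). Also higher were nej, skd, Scm, E(bx) and trx. Of the lower members, MED17, MED15, kto, E(z) and trr were at 0 in Pum xRIP, while Mi-2 (−2.47) and HDAC4 (−1.15) had counts.

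RNA-binding regulators had 7 higher and 3 lower of 44 (median −0.15). Besides pum itself, bru3 (FBgn0264001), of the Bruno family of translational regulators, was at 767, 702, 621 and 616 CPM in Pum xRIP and at 225, 367, 196 and 214 CPM in input (1.41 ± 0.23, SE, adjusted p = 0.00407, edgeR). Larp4B, orb2, msi, tral and Rbfox1 were also higher. Poly(A)-binding protein, pAbp (FBgn0265297), was lower at 340, 154, 228 and 196 CPM against 1047, 643, 726 and 729 CPM (−1.82 ± 0.31, SE, adjusted p = 0.00419, edgeR), and did not differ from control xRIP beyond its error (−0.03 ± 0.42). Fmr1, the fragile X protein, had no counts in Pum xRIP and 3.90 CPM in input (at least 23.3-fold lower), and shep was at −1.03. Of 19 genes of deadenylation and mRNA decay, through which Pum is known to act, 2 were higher and 1 lower (median −0.52). They were Tob, an adaptor of the CCR4-NOT deadenylase, with 2.77, DCP2, the decapping enzyme, with 1.21, and the exonuclease gene pcm, at 0.

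Signalling pathways also held genes of either direction. Of 31 genes of cAMP, PKA and calcium signalling 4 were higher and 4 lower, and the shares of the class overlapped (0.411 to 0.503% in Pum xRIP, 0.423 to 0.642% in input). The phosphodiesterase Pde1c (FBgn0264815) was at 551, 232, 801 and 504 CPM against 79.3, 68.5, 95.9 and 80.1 CPM (2.64 ± 0.37, SE, adjusted p = 0.00263, edgeR). The learning gene dnc (FBgn0000479), also a phosphodiesterase, was at 433, 329, 545 and 550 CPM against 155, 162, 127 and 184 CPM (1.53 ± 0.23, SE, adjusted p = 0.00308, edgeR). Pde11 and rut, an adenylyl cyclase, completed the higher genes. Calmodulin, Cam (FBgn0000253), was lower at 934, 950, 1040.0 and 1009 CPM against 3163, 1862, 3435 and 2991 CPM (−1.59 ± 0.22, SE, adjusted p = 0.00262, edgeR), and yet above control xRIP (1.46 ± 0.25, SE, adjusted p = 0.00376, edgeR). CanA1, a calcineurin subunit, and Ac76E were at 0 in Pum xRIP, and Gbeta13F was at −1.29.

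In EGFR, FGFR and MAPK signalling, 5 genes were higher and 3 lower of 29 (median 0.64). The kinase gene Raf (FBgn0003079) was at 42.3, 114, 59.2 and 116 CPM in Pum xRIP, at 8.53, 9.78, 14.8 and 18.3 CPM in input and at 0 in control xRIP (2.65 ± 0.60, SE, adjusted p = 0.0131, edgeR), a call lost without the w118 input (adjusted p = 0.0507, edgeR). The scaffold ksr, which holds Raf and its substrate together, was at 43.5, 40.5, 39.6 and 15.1 CPM against 1.16 to 3.05 CPM (4.22 ± 1.01, SE, adjusted p = 0.0173, edgeR), and lost its call without the fne, rbp9 or w118 input (adjusted p = 0.0840 to 0.0873, edgeR). The exchange factor Sos, the antagonist sty and kek1, an inhibitor of the EGF receptor at 335, 598, 451 and 798 CPM against 84.0, 187, 82.8 and 171 CPM, were higher too. The processing protease ru, the MAPK pathway regulator edl and the FGF ligand pyr were at 0 in both Pum xRIP and control xRIP and at 3.35 to 16.1 CPM in input. Of 20 genes of the Notch, Wnt, Hedgehog and BMP pathways, smo alone was called, at 0 in Pum xRIP and in control xRIP, although the class median was 0.67.

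The circadian clock had 5 genes called higher and none lower of 16 (median 0.26), and the class took 0.249 to 0.339% of Pum xRIP counts against 0.121 to 0.182% of input. The activator Clk (FBgn0023076) was at 444, 184, 206 and 247 CPM in Pum xRIP and at 14.1, 12.3, 19.998 and 15.2 CPM in input, with counts in only 1 control library (11.2 CPM). Its log2 fold change was 4.09 ± 0.41 (SE, adjusted p = 0.000940, edgeR). The repressor vri (FBgn0016076) was at 315, 134, 207 and 176 CPM against 35.9, 26.4, 21.3 and 25.7 CPM (2.89 ± 0.39, SE, adjusted p = 0.00233, edgeR), and library 1 was the highest in both. Pdp1, dco, the kinase that marks Period for decay, and slmb, which targets Period for degradation, were called at 1.01 to 1.64.

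Several classes had medians below that of all genes. For phototransduction, glycolysis, translation factors and muscle this depended on the fit, since their medians were 0.22 to 0.90 above that of all genes with limma voom (itself −2.30 there). The same held for the axonal cytoskeleton, fat body and glial classes, with 0.62 to 0.82 in voom and 0.00484 to 0.0430 with the set term, both without change in the direction of any gene named by rule. Phototransduction had 9 genes called lower and 2 higher of 30 (median −1.16), and its share was 3.18 to 3.27% in Pum xRIP, 4.26 to 5.42% in input and 1.90 to 2.0% in control xRIP. The myosin kinase ninaC (FBgn0002938) was at 154, 330, 219 and 229 CPM in Pum xRIP and at 1355, 1478, 986 and 1098 CPM in input (−2.44 ± 0.27, SE, adjusted p = 0.00124, edgeR). The arrestin Arr1 (FBgn0000120) was at 1773, 2146, 2684 and 2423 CPM against 5374, 5765, 6300 and 6284 CPM (−1.43 ± 0.16, SE, adjusted p = 0.00144, edgeR). Neither overlapped between groups, but Arr1 was above control xRIP by 1.13 ± 0.20 (SE, adjusted p = 0.00525, edgeR) and ninaC was not (0.32 ± 0.44). The channel genes trp and trpl, the scaffold inaD, Arr2, ninaB and the G protein subunits Gbeta76C and Galphaq were lower as well. The higher ones were the phospholipase norpA (1.32), at 6630 to 7355 CPM against 2396 to 3063 CPM, and rdgB, a phosphatidylinositol transfer protein (1.64). Of 21 odorant-binding proteins Obp28a alone was called, at 0 in Pum xRIP.

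Energy metabolism was lower where called. Of 18 genes of glycolysis and the citric acid cycle 11 were lower and none higher (median −1.41), and the class share was 0.562 to 0.649% in Pum xRIP, 1.25 to 1.48% in input and 0.612 to 0.813% in control xRIP. The aldolase gene Ald1 (FBgn0000064) was at 932, 946, 969 and 826 CPM against 3413, 3642, 2946 and 3846 CPM (−1.95 ± 0.15, SE, adjusted p = 0.000294, edgeR), and at 915 to 1332 CPM in control xRIP. Ldh had no counts in Pum xRIP and 6.76 CPM in input, at least 44.4-fold lower. Eno, PyK, Pgk, Gapdh1, Gapdh2, Mdh2, Idh3a, Ogdh and mAcon1 were called at −1.13 to −1.89.

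Oxidative phosphorylation had 12 lower and 0 higher calls of 69, yet its median of −0.32 was above that of all genes. UQCR-C1 (FBgn0038271) was at 214, 319, 316 and 223 CPM against 1164, 1081, 1100 and 1091 CPM (−2.09 ± 0.20, SE, adjusted p = 0.000787, edgeR). UQCR-C2 (FBgn0250814), the companion core subunit of complex III, which overlaps or closely neighbours Rpn12 on the same strand, was at 249, 294, 190 and 236 CPM against 703, 997, 658 and 961 CPM (−1.80 ± 0.22, SE, adjusted p = 0.00185, edgeR). Others were the ATP synthase subunits ATPsynbeta and blw and the complex I subunits ND-39, ND-42, ND-49 and ND-51. In control xRIP the class median against input was 0.91, and 28 of 66 members were lower in Pum xRIP than in control xRIP.

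Ribosomal protein mRNAs were not lower as a class. The 69 tested cytoplasmic ribosomal proteins had a median of 0.32, with 1 higher and 3 lower calls, and took 17.4 to 19.8% of Pum xRIP counts, 12.1 to 14.2% of input and 28.5 to 30.04% of control xRIP. The control libraries lay highest and the Pum xRIP libraries between them and the inputs, without overlap. RpL3 (FBgn0020910) was lower at 1043, 997, 1367 and 1517 CPM against 2678, 4808, 3090 and 3109 CPM (−1.51 ± 0.21, SE, adjusted p = 0.00272, edgeR), as was RpL4 at 380 to 431 CPM against 764 to 1058 CPM (−1.21 ± 0.18, SE, adjusted p = 0.00286, edgeR). RpL34b was the higher one (1.01) and RpLP0-like, at 0, the third lower one. Mitochondrial ribosomal proteins had 1 lower call (mRpL50) of 68 and a median of −0.40.

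Genes of translation and protein turnover follow. Translation factors had 8 lower, 2 of them at 0 in Pum xRIP, and 1 higher of 43 (median −0.96, against −0.98 in control xRIP). Transcripts of eEF1alpha1 (FBgn0284245) were at 389, 457, 451 and 406 CPM in Pum xRIP and at 1200, 807, 1743 and 1600 CPM in input (−1.70 ± 0.26, SE, adjusted p = 0.00329, edgeR), and those of eIF4A (FBgn0001942), the helicase of initiation, at 193, 240, 265 and 84.5 CPM against 1128, 690, 1222 and 959 CPM (−2.40 ± 0.38, SE, adjusted p = 0.00364, edgeR). Neither differed from control xRIP beyond its error (0.23 ± 0.29 and 0.03 ± 0.48, SE). The higher one was eIF4EHP, a cap-binding repressor of translation (1.32, at 234 to 443 CPM against 134 to 152 CPM). Proteasome subunits had 6 lower and 0 higher of 33 (median −1.58) and 0.163 to 0.252% of counts against 0.422 to 0.530% in input. Rpt2 (FBgn0015282), an ATPase of the cap, was at 49.4, 63.4, 86.8 and 107 CPM against 273, 375, 268 and 311 CPM (−2.04 ± 0.29, SE, adjusted p = 0.00271, edgeR), and Rpn5 had counts only in Pum xRIP library 2 (0.164 CPM) against 55.5 to 72.3 CPM in input. Of 28 tRNA synthetases 10 were lower and none higher (median −2.83, against −2.62 in control xRIP), and 9 of the 10, among them CysRS and AsnRS-m, had no counts in Pum xRIP and at most 37.8 CPM in input. Chaperones had 4 lower of 21, all at 0 in Pum xRIP (Hsp26, CCT2, CCT4 and Stip1).

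Detoxifying enzymes of the cytochrome P450, GST and UGT families had 21 lower and 0 higher of 86 (median −1.55), 16 of them at 0 in Pum xRIP, such as Cyp4ae1 and Cyp312a1 (3.84 and 4.16 CPM in input). Members with counts in every Pum xRIP library and a lower call included Cyp28d1 (−1.67), Cyp4g15 (−2.05) and GstD1 (−1.50). The class share was 0.301 to 0.441% in Pum xRIP, 0.540 to 0.686% in input and 0.480 to 0.637% in control xRIP.

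The cytoskeleton of axons gave 5 lower genes and 1 higher of 21 (median −1.04), with a share of 0.223 to 0.355% against 0.534 to 0.935% in input and 0.117 to 0.210% in control xRIP, whose median against input was −2.12. The microtubule-associated protein gene futsch (FBgn0259108) was at 129, 157, 201 and 474 CPM in Pum xRIP and at 780, 1158, 781 and 1100 CPM in input (−2.03 ± 0.40, SE, adjusted p = 0.00716, edgeR). Library 4 was well above the other Pum xRIP libraries and still below every input. The kinesin Klp64D was at 0 in Pum xRIP (at least 43.2-fold lower), as was the dynein chain Dhc64C. The tubulins alphaTub84B and alphaTub84D were lower too, but they are nearly identical copies between which reads cannot be split with certainty. The higher gene was Miro (2.77), which tethers mitochondria to kinesin.

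Among transcripts typical of tissues outside the brain, muscle contractile proteins had 7 lower and 0 higher of 22 (median −1.28), although the shares of Pum xRIP (0.330 to 0.594%) and input (0.446 to 0.867%) overlapped, and control xRIP held 1.49 to 2.56%. The giant titin-like genes bt (48.0, 117.5, 49.4 and 43.4 CPM against 445, 1090, 570 and 1327 CPM, −3.74 ± 0.48, SE, adjusted p = 0.00217, edgeR) and sls (62.3 to 129 CPM against 252 to 470 CPM, −2.06 ± 0.30, SE, adjusted p = 0.00295, edgeR) led the list, and actin genes Act79B, Act87E and Act88F share sequence and are uncertain. Of fat body genes 4 of 12 were lower: the iron carrier Tsf1 (235, 158, 157 and 169 CPM against 463, 759, 865 and 704 CPM, −1.99 ± 0.25, SE, adjusted p = 0.00215, edgeR), the lipid carriers apolpp (−2.14) and Apoltp (−2.09), and fon (−2.43). The class median against input was −1.40 in Pum xRIP and −2.16 in control xRIP. Its share was 0.603 to 0.822% in Pum xRIP, 0.864 to 1.91% in input and 0.320 to 0.424% in control xRIP. Tsf1 (0.08 ± 0.51, SE) and apolpp (0.33 ± 0.22, SE) were not called against control xRIP. Cuticle proteins had 4 lower of 28, 3 of them at 0 in Pum xRIP, a share near that of all genes.

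Of 19 glial genes 3 were lower (median −1.07). Glutamine synthetase, Gs2 (FBgn0001145), was at 389, 374, 708 and 405 CPM against 2027, 1156, 1505 and 1271 CPM (−1.72 ± 0.29, SE, adjusted p = 0.00428, edgeR), and lower than control xRIP too (−1.39 ± 0.28, SE, adjusted p = 0.00917, edgeR). The others were e and nrv2, and Eaat1 was the higher one. Immune peptides had the short peptide BomS4 higher (1.41, with control xRIP at 1290 to 1538 CPM, as high as Pum xRIP) and Drs lower (−1.29) of 33. The class share was 2.02 to 2.25% in Pum xRIP and 1.07 to 1.46% in input. Control xRIP, at 1.92 to 2.22%, overlapped Pum xRIP.

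Among 55 tested long noncoding RNAs, 1 was higher and 5 were lower (median 0.45). lncRNA:CR42861 (FBgn0262108) was at 205, 227, 125 and 157 CPM in Pum xRIP and at 8.33, 9.66, 6.43 and 6.94 CPM in input (4.47 ± 0.40, SE, adjusted p = 0.000536, edgeR). lncRNA:CR34335 (FBgn0267910), which overlaps or closely neighbours DIP-alpha on the same strand, was at 28853, 24826, 38186 and 35639 CPM against 76566, 85973, 80043 and 120280 CPM (−1.54 ± 0.21, SE, adjusted p = 0.00233, edgeR). The whole class took 4.26 to 5.40% of Pum xRIP and 8.18 to 12.5% of input counts, most of it lncRNA:CR34335. Without it the others took 1.26 to 1.46% of Pum xRIP, 0.843 to 1.11% of input and 1.15 to 1.33% of control xRIP counts.

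Outside the lists, CG13999 was among the largest increases, at 29.2, 16.1, 47.9 and 122 CPM in Pum xRIP, at most 2.59 CPM in input and 0 in control xRIP (4.78 ± 1.05, SE, adjusted p = 0.0106, edgeR). Its call was lost without the 2 inputs of mixed genotype (adjusted p = 0.142, edgeR) and in the 3-group fit (adjusted p = 0.118, edgeR). The largest decreases by the rule for naming genes were f-cup, 128up, CG7182, CG11122 and CG34327, with no counts in Pum xRIP against 51.7 to 78.9 CPM in input. They were at least 462-, 469-, 361-, 319- and 315-fold lower at the floor of 3 counts, which covers counting error only. Like all genes without counts in Pum xRIP, they passed the expression filter only through the inputs. CG11122 had no counts in control xRIP either. Control means were 8.41 CPM for f-cup, 16.1 for 128up, 20.6 for CG7182 and 15.9 for CG34327. The calls of these decreases were lost without the 2 inputs of mixed genotype.

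The transcripts that were higher had long 3′ UTRs rich in PREs. The median longest 3′ UTR was 1946 nt among genes called higher, 353 nt among all tested genes and 242 nt among those called lower. A PRE was present in 232 of 262 higher genes (88.5%), in 1772 of 7335 tested genes (24.2%) and in 82 of 921 lower genes (8.90%), and in 24 of 265 lower genes that had counts in Pum xRIP. Longer UTRs hold any short motif more often, and the same letters in reversed order (ATANATGT) were found in 55.3% of the higher genes and 20.5% of all. Within UTRs over 1600 nt, 143 of 152 higher genes (94.1%), 59.3% of all tested genes and 17.6% of lower genes held a PRE, whereas the reversed letters were in 70.4%, 60.0% and 49.0%. Between 801 and 1600 nt the shares with a PRE were 81.0%, 38.8% and 15.5%. The share among higher genes rested on the annotation of the UTR. It was 56.5% with the shortest annotated 3′ UTR of each gene and 42.75% in the last 500 nt of the longest. For these settings no share over all tested genes is given, so they cannot be compared with the background.

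**Figure D4:**
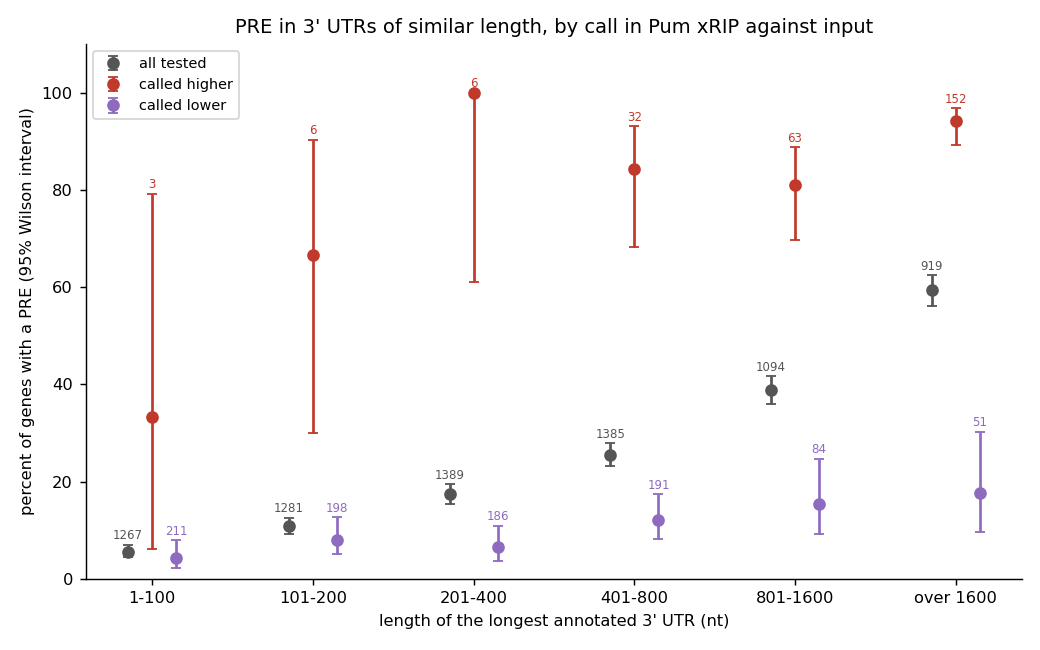
Percent of genes with a PRE in bins of 3′ UTR length, for all tested genes and those called higher or lower in Pum xRIP than in input, with 95% Wilson intervals and the number of genes at each point. In UTRs over 1600 nt the values are 94.1% for higher, 59.3% for all and 17.6% for lower genes.

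Genes with more elements had higher fold changes. The median log2 fold change was −0.82 over 5563 genes without a PRE, 0.20 over 1251 with 1, 1.16 over 349 with 2 and 1.80 over 172 with at least 3, and 0.539%, 5.44%, 23.5% and 47.7% of these genes were called higher. The median 3′ UTR was also longer, from 261 nt without a PRE to 2616 nt with at least 3, so number and length move together. By length alone, Pum xRIP and control xRIP went in opposite directions. From UTRs of up to 100 nt to those over 1600 nt the median log2 fold change went up from −0.87 to 0.26 for Pum xRIP but down from −0.32 to −2.15 for control xRIP. In the longest bin genes with a PRE had a median of 0.82 and those without −0.50 in Pum xRIP, against −2.33 and −1.86 in control xRIP.

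**Figure D5:**
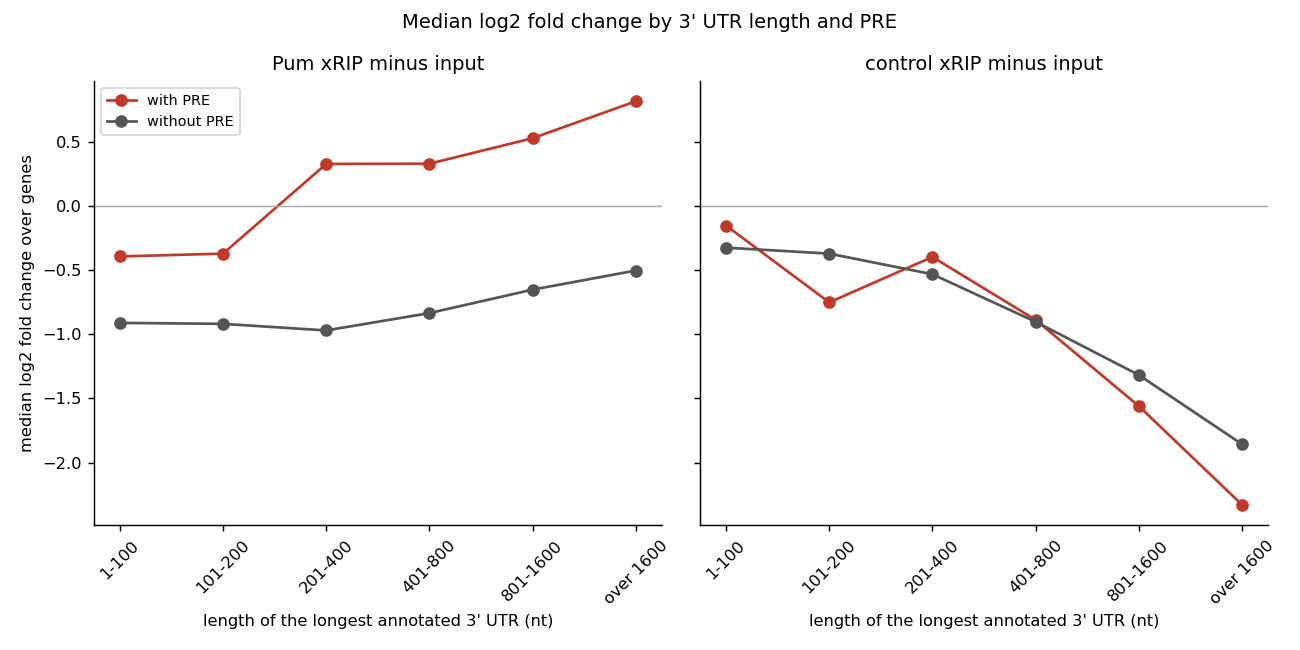
Median log2 fold change over genes with and without a PRE in bins of 3′ UTR length, for Pum xRIP minus input (left) and control xRIP minus input (right), which share the inputs. In Pum xRIP the genes with a PRE lie above those without in every bin and reach 0.82 in the longest, and in control xRIP both lines go down to −2.33 and −1.86.

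Within themes the genes with and without a PRE were also set side by side, with no test of the difference. The frequency of PREs in transcripts recovered with Pum was known when the lists were chosen. Of 97 neuronal signalling genes with a PRE 26 were called higher (median log2 fold change 1.20), and of 108 without 4 (−0.46). In adhesion and guidance the numbers were 30 of 78 (1.39) and 1 of 29 (−0.13), and in regulation 40 of 125 (1.16) and 0 of 142 (−0.52). Among the dpr and DIP genes all 10 that were higher belonged to the 22 with a PRE. In the active zone class the medians were 1.19 over 8 genes with a PRE and 1.21 over 4 without. Growth and metabolism had only 36 genes with a PRE among 521, and their median was −0.27 against −0.82 for the rest. Called genes without a PRE in the annotated UTR included nAChRbeta1, norpA and Capa. These shares describe the annotation, and binding at any site was not measured.

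The 3′ ends were also counted 1 by 1. Of 14932 clusters of 3′ ends tested, 205 were higher (1.37%) and 2945 lower (19.7%), with a median log2 fold change of −0.98 over all. The higher clusters lay in 146 genes and the lower ones in 2253, and 135 of the 264 higher genes had at least 1 higher cluster. Clusters went in both directions within 18 genes, among them 5-HT1B, cac, norpA, rut and nej. Of the 47 classes, 43 had a cluster median on the same side of the median of all clusters as their gene median was of all genes. The exceptions were transmitter synthesis (0.76 above all clusters), phototransduction (0.04), the vacuolar proton pump (0.03) and odorant-binding proteins (−0.02). Potassium channels had 14 higher and 1 lower of 96 clusters, dpr and DIP genes 15 and 1 of 61, phototransduction 5 and 42 of 153, and oxidative phosphorylation 0 and 48 of 183.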

How the data were processed

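Heads of adult flies were profiled by 3′-end sequencing (QuantSeq REV) after Flag immunopurification of UV-cross-linked lysate (4 Pum xRIP and 4 control xRIP libraries) and before it (4 inputs). Per their methods and notes, the authors used fastp for trimming and STAR 2.6.1b for mapping to dm6, masked signal next to genomic runs of A, merged 3′ ends into clusters and deposited raw counts per gene (10422) and per cluster (56392), with no normalization. Each gene count equalled the sum of its clusters. Tables holding the same counts for the study's DESeq runs differed in 0 cells and were not used. Reads had no molecular identifiers, so intervals and floors cover counting error only. Groups came from the labels, and the fne and rbp9 inputs could not be matched to a sample and were used as group members.

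Counts were tested with edgeR 4.0.16 (R 4.3.3; TMM, default filter by group, quasi-likelihood F test, Benjamini-Hochberg adjustment) on the 2 groups compared, called at an adjusted p below 0.05 and an absolute log2 fold change above 1, with SE taken as the fold change over the square root of F. The script was tested on simulated counts. Alternatives were DESeq2 1.42.0, voom of limma 3.58.1, other scalings and filters, all 3 groups in 1 fit, fewer inputs, leaving out each library, a replicate block, and, chosen after seeing the data, a term for the 2 sets of libraries. Symbols, positions and 3′ UTRs were from Ensembl 115 (BDGP 6.54), which covered 10345 genes and gave 9648 a 3′ UTR. Overlap was judged on annotated intervals lengthened downstream, so such genes may only be neighbours. The functional classes, markers and members were chosen with earlier results of these data known, among them the frequency of PREs in transcripts recovered with Pum, and therefore have counts and medians and no test. Genes named were pum, the 5 largest increases and decreases without overlap, and, for each class with at least 3 calls in a direction, the 2 with the smallest adjusted p. Other genes are named where counts were small and were chosen after their values were seen. Library shares of a class are percent of all counts.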

Additional observations from a re-analysis of the deposited data

Results flagged for a closer look

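With 4 libraries per group, a library was picked out where its gap to the nearest other took most of the range of the group (above the 95% critical value of Dixon's test). Of the 260 groups examined, 17 had such a library, where chance would give about 13 if every group could be flagged. Groups at 0 in every library have no range and could not be flagged, so chance gives fewer. Among shares of counts, the input libraries with 0.134% for metabotropic receptors, 0.290% for chromatin proteins, 0.374% for mitochondrial ribosomal proteins, 0.540% for P450, GST and UGT enzymes and 0.935% for the axonal cytoskeleton stood apart, as did the Pum xRIP library with 0.732% for neuronal transcription factors. Among levels in Pum xRIP, the libraries apart were those with 15.1 CPM of ksr, 231.9 CPM of mtt, 878 CPM of eag, 800.3 CPM of upSET, 0.164 CPM of Rpn5, 117.5 CPM of bt, 235 CPM of Tsf1 and 708 CPM of Gs2. Among levels in input they were those with 19.3 CPM of beat-Ic, 35.0 CPM of Sin3A and 137 CPM of upSET. In each of these genes the called direction was kept without the library in question.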

How the results depend on the processing

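The 264 higher and 944 lower genes became 42 and 372 with all 3 groups in 1 edgeR fit and 100 and 520 without the 2 mixed genotype inputs. DESeq2 gave 416 higher genes and voom 1805 lower ones. Leaving out 1 library gave 195 to 343 higher and 806 to 1916 lower genes. For clusters, 205 higher and 2945 lower, the 3-group fit gave 30 and 1350, the fit without the mixed inputs 41 and 1732, no filter 32 and 304, and leaving out 1 library 121 to 324 and 2273 to 7432. DESeq2 gave 607 and library totals 430 higher clusters, and voom 5638 and a mean of at least 10 counts 5377 lower ones. Against control xRIP, 270 higher and 131 lower genes became 590 and 340 with the 3-group fit and 629 and 232 with voom, DESeq2 gave 528 and no filter 439 higher genes, and leaving out 1 library gave 155 to 273 and 83 to 116. In the longest 3′ UTR 88.5% of higher genes had a PRE, and 55.3% had the reversed motif, which is not a PRE. The share with a PRE was 56.5% with the shortest 3′ UTR and 42.75% in the last 500 nt. Neither of these has a share over all tested genes beside it. The cause was not tested.

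With a replicate block, 245 genes were higher and 122 lower than control xRIP, of which 196 and 106 were among those called without it. Deviations of same-numbered Pum and control libraries correlated at only 0.00198 to 0.0332. With the wide spread of both purifications, this cannot decide whether the numbers pair the libraries. Over the 557 genes above 50 CPM, deviations of Pum and control libraries correlated at 0.039 to 0.24 within a set and at −0.31 to −0.1 across sets. These values describe sets drawn from the same deviations and do not test them. No paired analysis was possible for Pum xRIP against input because the inputs carry no replicate numbers. A term for the 2 sets of libraries, chosen after seeing the data, gave 265 higher and 957 lower genes, 251 and 924 of them shared.

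Of 36 named higher genes, 29 lost the call in the 3-group fit, 10 without the mixed inputs and at most 3 without any 1 library, and of 47 named lower genes 10, 7 and 0. No named gene changed direction in 1392 values. Of 47 class medians, 31 stayed on their side of the median of all genes in 17 alternatives, and the rest crossed it in 1 to 9. With voom 11 crossed, among them phototransduction, glycolysis, translation factors, the axonal cytoskeleton, muscle, fat body and glia, and with the set term 7. The 667 genes with no counts in Pum xRIP had a median of 8.42 CPM in input, and at this depth their decrease can be given only as a bound.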
